A study of Homo sapiens with 12 samples.

Results

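The interferon regulatory factors (IRFs) are transcription factors that share a helix-turn-helix DNA-binding domain and recognise GAAA repeats in promoters and enhancers. The members measured were IRF1, IRF2, IRF3, IRF4, IRF5, IRF7, IRF8 and IRF9, chosen by symbol from the 26210 genes of the table. All 8 reached 1 FPKM (fragments scaled to transcript length and to the mapped fragments of the library) in at least 2 of the 12 RNA-Seq libraries, so none was lost to the filter on low values. The study compared cell lines of classical Hodgkin lymphoma (cHL), a B-cell tumour whose malignant cells have shut down most of the B-cell programme, with 2 non-Hodgkin B-lineage lines.

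The cHL group held the untreated lines L428, L1236 and KM-H2. The controls were Namalwa, a Burkitt's lymphoma line, and Reh, a B-cell precursor leukaemia line, both untreated. A further group was Reh treated with 2 ng/ml phorbol myristate acetate (PMA), a phorbol ester that activates protein kinase C, for a time that the labels do not give. Each of the 6 conditions had 2 libraries of ribosomal RNA-depleted total RNA, which the table numbers 0 and 1. Each line is a single model of its tumour. The cHL lines and the control lines were grown in different media according to the labels, so line type and medium cannot be told apart. In bulk RNA, fewer expressing cells and less RNA per cell cannot be told apart either. Nothing states that the duplicates came from separate cultures, so the p-values measure the spread between libraries, which may be technical.

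IRF3 and IRF7 are phosphorylated downstream of viral nucleic acid sensors and switch on type I interferon genes, and IRF5 acts downstream of Toll-like receptors on inflammatory cytokine genes. IRF9 binds DNA for the complex it forms with STAT proteins in interferon-treated cells. IRF1 is an interferon-gamma-induced activator, and IRF2 competes with it for the same sites. IRF4 and IRF8 are the lymphoid and myeloid members. They bind DNA weakly alone and rely on partners such as PU.1 (SPI1), SPIB or BATF-JUN dimers, and IRF4 is required for plasma cell differentiation.

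The labels were checked against marker genes. Summed over 6 precursor B markers, Reh held 1230 and 1320 FPKM, Namalwa 213 and 216 FPKM, PMA-treated Reh 131 and 142 FPKM, and the cHL libraries 0.969 FPKM or less. VPREB1, in this list, was listed at 0 in Reh and lay at 11.4 and 7.89 FPKM in Namalwa. Summed over 6 B-lineage markers, the cHL libraries held 4.22 to 24.4 FPKM and the other libraries 796 to 1377 FPKM. CD37, 1 of the 6, went the other way against Reh. It lay at 11.2 and 9.02 FPKM in L428 and 18.4 and 22.4 FPKM in L1236, but at 3.24 and 2.16 FPKM in Reh. TNFRSF8, which encodes the Hodgkin marker CD30, lay at 19.1 to 63.7 FPKM in the cHL libraries and at 0.505 FPKM or less elsewhere. Of the 5 Hodgkin line markers listed, CCL17 divided the libraries likewise (12.6 to 705 FPKM against 0.267 FPKM or less), but the others did not. CSF1R was highest in PMA-treated Reh (11.8 and 11.2 FPKM, against 2.05 FPKM or less in the cHL libraries). CD70 overlapped between Namalwa (36.4 and 57.1 FPKM) and L1236 (37.7 and 46.1 FPKM). IL13 lay at 0.745 FPKM or less in L1236 and KM-H2. Summed over 7 T-cell, myeloid and stromal markers, KM-H2 held 21.2 and 30.9 FPKM, Reh 26.1 and 32.9 FPKM, and the other libraries 6.94 FPKM or less. In KM-H2 most of this was the T-cell gene CD3D (13.5 and 22.5 FPKM) and the monocyte gene CD14 (5.79 and 4.56 FPKM), while CD3E, another T-cell gene, lay at 0.197 and 0 FPKM. In Reh most of it was the myeloid gene MPO (24.8 and 32.0 FPKM). EGR1, an immediate early gene induced by PMA, lay at 62.1 and 76.2 FPKM in PMA-treated Reh and at 0.0349 and 0.138 FPKM in Reh. The duplicates of the cHL lines differed more (SD of the difference across genes, 0.850 to 0.949 on the log2 scale) than those of the other conditions (0.393 to 0.575).

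IRF4 and IRF5 were higher in each cHL line than in the controls, whereas IRF8 was lower in L1236 and KM-H2. PMA lowered IRF1, IRF2 and IRF5 and raised IRF3 in Reh. A gene was called when the Benjamini-Hochberg adjusted p of limma was below 0.05 and the difference on the log2(FPKM + 1) scale was at least 1, and all differences below are on that scale. Against the mean of Reh and Namalwa, 3 of 8 members were called higher in L428, where 16.2% of the 14679 genes tested were called higher, and none was called lower, against 13.8% of genes. Neither the adjusted nor the unadjusted p put a member lower in L428: the 3 members with an unadjusted p below 0.05 were the 3 that rose. Of the 14679 genes tested, 7816 had an unadjusted p below 0.05 in L428, in either direction. In L1236, 4 members were called higher and 1 lower (15.7% and 13.3% of genes). In KM-H2, 2 were called higher and 2 lower (16.8% and 13.5% of genes).

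Between the controls, Namalwa had 2 members higher and 3 lower than Reh (7.50% and 11.5% of genes). With PMA, 1 member was called higher and 3 lower than in untreated Reh (10.5% and 11.8% of genes). Among L428, L1236 and KM-H2, an F test over the lines called 6 of 8 members different, with 42.2% of all genes called. The median difference of the members was 0.35 in L428, 0.88 in L1236, -0.61 in KM-H2, -0.31 in Namalwa and -0.41 with PMA, and the median over all genes tested lay between -0.03 and 0 in these comparisons.

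Duplicate libraries replicate a line and not the disease, so the 3 cHL lines were also compared with the 2 control lines on 1 mean per line. None of the 8 members was called, where 0.320% of genes were called higher and 0.225% lower. With limma, 2 members had an unadjusted p below 0.05, as did 1983 of the 14679 genes tested. IRF4 was 4.30 higher in the cHL lines (SE 1.12, adjusted p = 0.222) and IRF5 was 4.15 higher (SE 0.86, adjusted p = 0.155). When the libraries were taken as the unit, which treats duplicates as independent lines, limma gave adjusted p = 2.15e-07 for IRF4, 8.25e-08 for IRF5, 1.16e-05 for IRF8 (-2.72) and 0.00190 for IRF9 (1.41 higher).

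**Figure D1:**
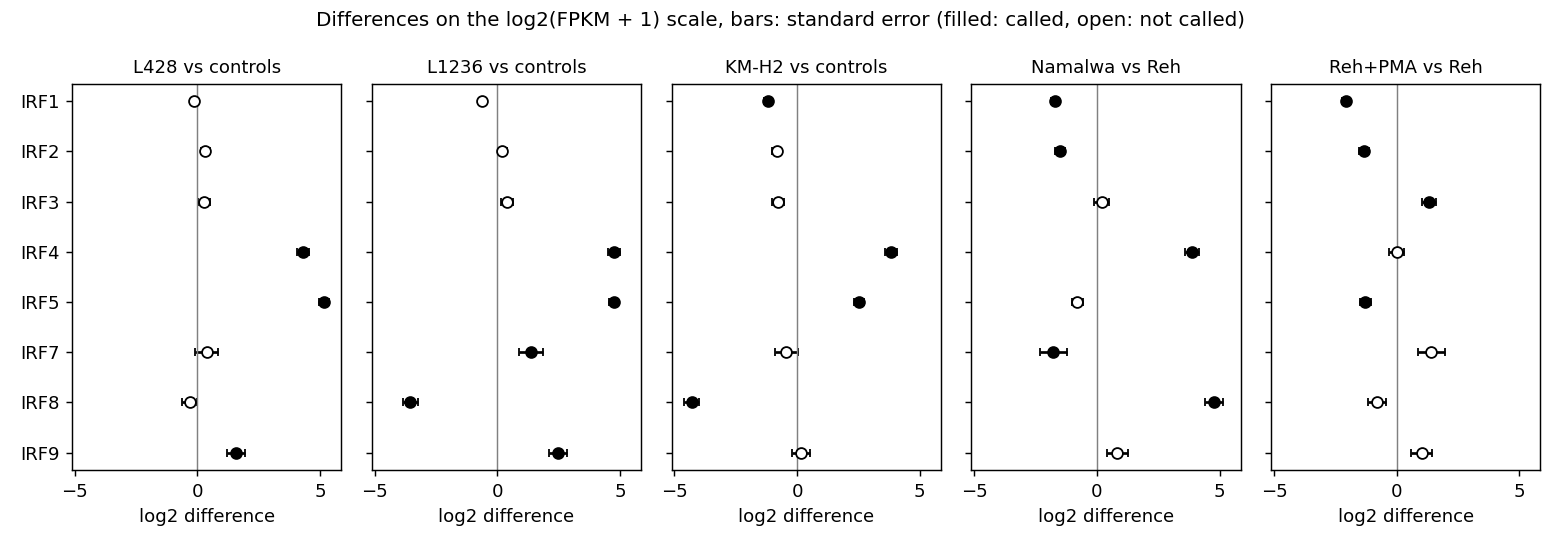
Differences of the 8 IRF genes on the log2(FPKM + 1) scale in 5 comparisons, with the standard error as a bar; filled points were called by limma and open points were not. IRF4 and IRF5 lie to the right of 0 in each cHL line against the mean of Reh and Namalwa, IRF8 lies far to the left in L1236 and KM-H2, and IRF1 lies at -2.08 with PMA.

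IRF4, the lymphoid factor of activated B cells and plasma cells, spans chr6:391739-411443 on the plus strand (GRCh37). It was the most abundant member in every cHL library. IRF4 lay at 160 and 123 FPKM in L428, at 194 and 190 FPKM in L1236 and at 133 and 74.8 FPKM in KM-H2. In Namalwa it lay at 23.7 and 29.0 FPKM. Reh held 1.17 and 0.600 FPKM, and PMA-treated Reh 0.702 and 1.02 FPKM. All 6 cHL libraries were above both Namalwa libraries, which in turn were above all 4 Reh libraries.

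The difference in IRF4 from the control mean was 4.31 in L428 (SE 0.25, limma adjusted p = 1.47e-06), 4.76 in L1236 (SE 0.25, adjusted p = 6.82e-07) and 3.82 in KM-H2 (SE 0.25, adjusted p = 2.91e-06). Because Namalwa itself was 3.87 higher than Reh (SE 0.29, adjusted p = 1.23e-05), the controls were also taken singly. Against Namalwa alone IRF4 was 2.37, 2.83 and 1.89 higher in L428, L1236 and KM-H2, and against Reh alone 6.24, 6.70 and 5.76 higher, all with limma adjusted p of 0.000747 or less. The ranges of L428 and KM-H2 overlapped, and the F test among the cHL lines was not called (largest difference 0.94, adjusted p = 0.0596), although without the KM-H2 library numbered 0 it was (1.35, adjusted p = 0.0128). PMA left IRF4 in Reh at a difference of -0.01 (SE 0.29, limma adjusted p = 1).

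IRF8, the related factor of germinal centre B cells and the myeloid lineage, spans chr16:85932722-85956212 on the plus strand. Its highest level was in Namalwa, with 89.1 and 152 FPKM. L428 held 22.2 and 13.0 FPKM, whereas L1236 held 0.598 and 1.28 FPKM and KM-H2 was listed at 0 and 0.279 FPKM. Reh lay at 3.36 and 3.16 FPKM and PMA-treated Reh at 0.962 and 1.99 FPKM. The order was Namalwa, L428 and Reh without overlap, then PMA-treated Reh and L1236, whose ranges overlapped, and KM-H2 below them. The worth of 1 fragment, estimated from the steps of the low values, was 2.61 and 1.70 times that of the Reh library numbered 0 in KM-H2 and 1.61 times in the L1236 library numbered 0. A value of 0 in KM-H2 therefore does not show that IRF8 is absent.

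IRF8 was 4.78 higher in Namalwa than in Reh (SE 0.36, limma adjusted p = 1.24e-05). It was lower than the control mean in L1236 (-3.55, SE 0.31, adjusted p = 1.78e-05) and in KM-H2 (-4.31, SE 0.31, adjusted p = 5.26e-06). Both lines were also lower than Reh alone, by -1.16 in L1236 (limma adjusted p = 0.0298) and by -1.91 in KM-H2 (adjusted p = 0.00227). In L428 the sign depended on the control: IRF8 was 2.08 above Reh (limma adjusted p = 0.00148) and lay at -2.70 against Namalwa (adjusted p = 0.000323). The largest difference among the cHL lines was 3.99 (F test in limma, adjusted p = 4.10e-05). With a pseudocount of 0.1, that difference was 6.46 and the difference of KM-H2 from the control mean was -6.67. With PMA the difference was -0.81 (SE 0.36, adjusted p = 0.118).

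IRF4 exceeded IRF8 in the cHL libraries and IRF8 exceeded IRF4 in the others. On the log2(FPKM + 1) scale IRF4 minus IRF8 was 2.80 and 3.14 in the L428 libraries, 6.93 and 6.39 in L1236 and 7.07 and 5.89 in KM-H2. It was -1.86 and -2.35 in Namalwa, -1.01 and -1.38 in Reh, and -0.21 and -0.57 in PMA-treated Reh. The ranges of L1236 and KM-H2 overlapped. Of the FPKM summed over the 8 members, IRF4 made up 31.4% to 68.2% in the cHL libraries, IRF8 made up 48.8% and 56.1% in Namalwa, IRF1 made up 38.1% and 42.5% in Reh, and IRF3 made up 56.4% and 52.7% in PMA-treated Reh. The sum was 374 to 430 FPKM in L428 and L1236 and 143 to 271 FPKM in the other 8 libraries.

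**Figure D2:**
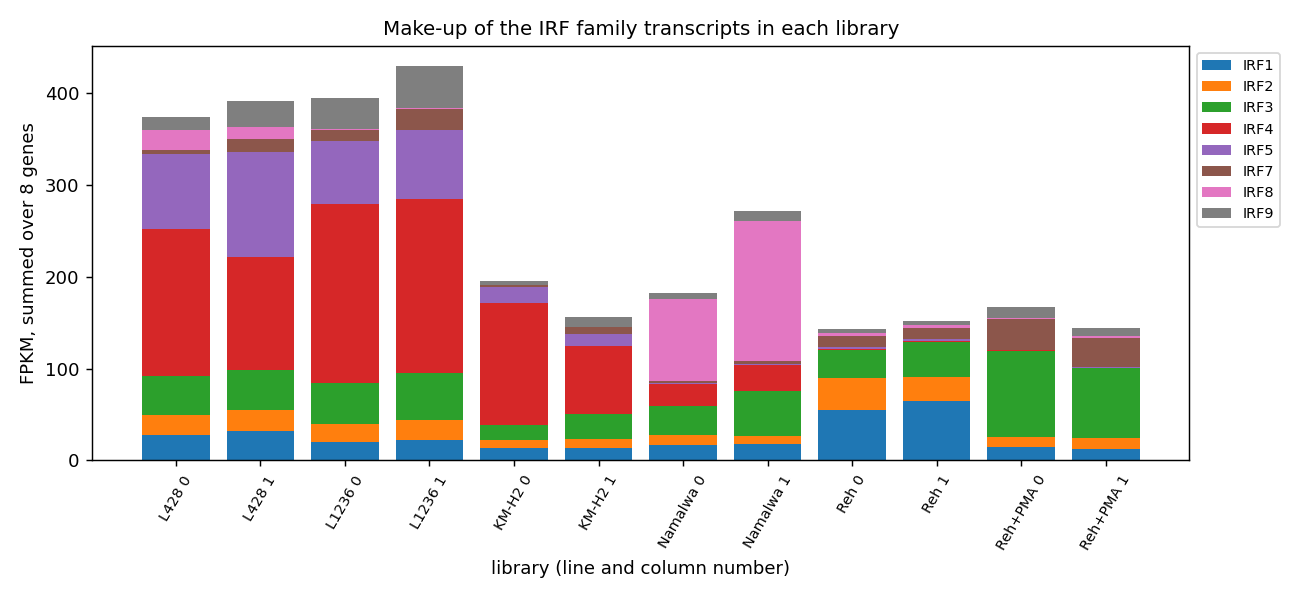
FPKM of the 8 IRF genes stacked in each of the 12 libraries, which are named by line and column number; colours stand for genes. IRF4 takes the largest share in the cHL libraries, IRF8 in Namalwa, IRF1 in Reh and IRF3 in PMA-treated Reh.

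The partners through which IRF4 and IRF8 bind DNA also differed between the lines. SPI1, which encodes PU.1, was listed at 0 in all 6 cHL libraries and lay at 33.8 and 33.6 FPKM in Namalwa and at 24.9 and 22.4 FPKM in Reh. BATF lay at 69.4 to 134 FPKM in the cHL libraries, at 0.133 to 1.66 FPKM in Namalwa and Reh, and at 19.8 and 32.7 FPKM after PMA. JUNB lay at 136 to 295 FPKM in the cHL libraries, at 18.6 to 23.9 FPKM in Namalwa and Reh, and at 245 and 188 FPKM after PMA. Of the 10 partner and corepressor genes, all tested, these were the 3 called over line means: BATF was 5.80 higher (SE 0.35, limma adjusted p = 0.00896), JUNB was 3.06 higher (SE 0.34, adjusted p = 0.0427) and SPI1 was lower (-4.87, SE 0.41, adjusted p = 0.0218). Over all genes tested, 0.320% were called higher and 0.225% lower on line means.

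BATF3, a dimer partner in the same family, was 6.03 higher in L428, 6.85 higher in L1236 and 3.98 higher in KM-H2 than in the controls, with limma adjusted p of 1.29e-05 or less. With PMA, BATF rose by 3.45 (SE 0.37, adjusted p = 0.000231) and JUNB by 3.34 (SE 0.25, adjusted p = 3.08e-05), and IKZF1, the lymphoid factor Ikaros, was lower (-2.88, SE 0.29, adjusted p = 0.000173). In Namalwa IKZF3, which encodes Aiolos, was 4.83 higher and SPIB 2.40 higher than in Reh (limma adjusted p = 6.17e-06 and 0.00247). Of these 10 genes, 4 were called higher and 2 lower in L428, 5 and 3 in L1236, 4 and 5 in KM-H2, 2 and 2 in Namalwa, and 3 and 2 with PMA. Over all genes tested the shares called higher and lower were 16.2% and 13.8% in L428, 15.7% and 13.3% in L1236, 16.8% and 13.5% in KM-H2, 7.50% and 11.5% in Namalwa, and 10.5% and 11.8% with PMA. The medians of the 10 genes were 0.42, 1.08, -0.15, 0.26 and -0.20 in the same order, against medians between -0.03 and 0 over all genes.

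**Figure D3:**
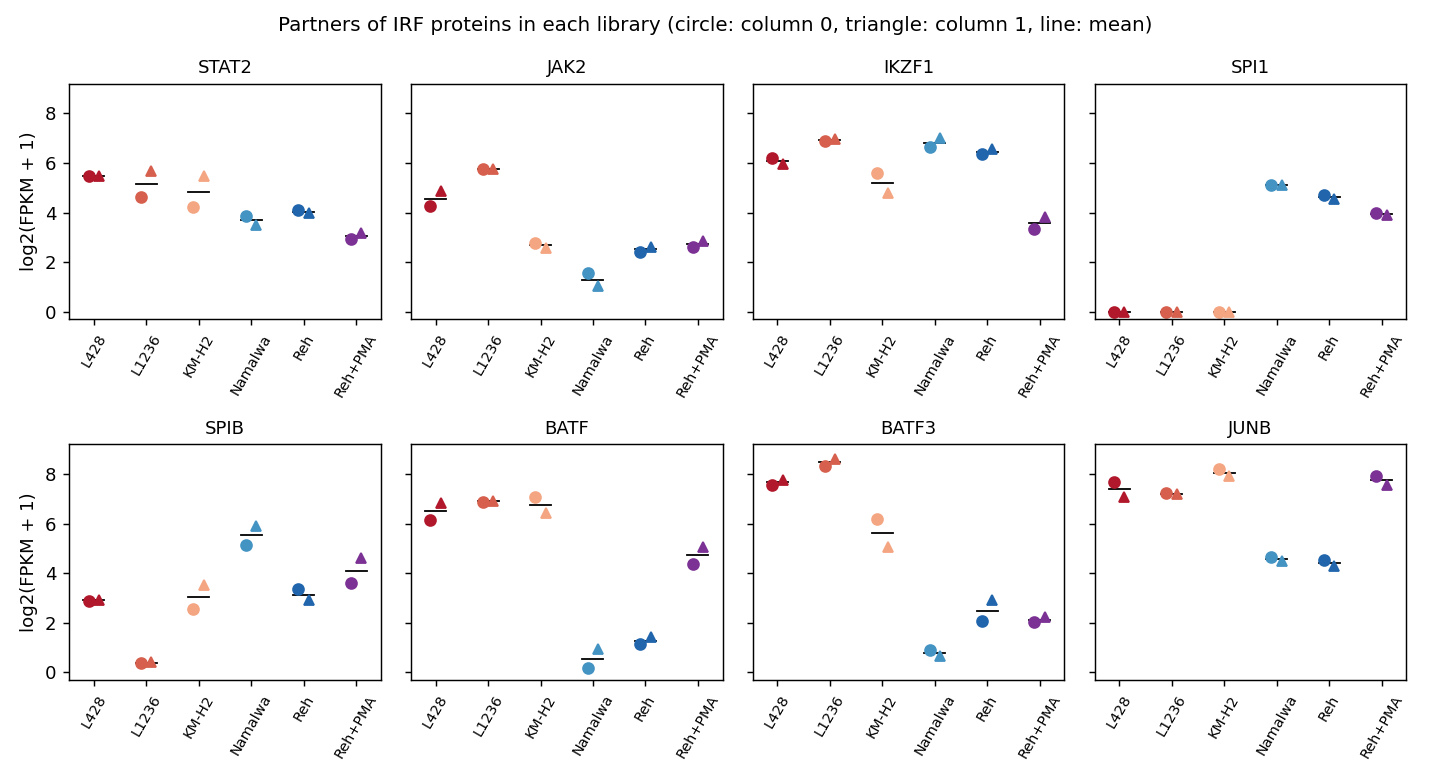
Levels of 8 genes whose proteins act with IRFs, as log2(FPKM + 1), by condition; circles are the libraries numbered 0, triangles those numbered 1 and lines their mean. SPI1 lies at 0 in the cHL lines, where BATF, BATF3 and JUNB are high, and BATF and JUNB are also high in PMA-treated Reh.

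A list of 9 B-cell and plasma cell genes was chosen for a link to IRF4 and IRF8, and whether either factor acts on them here was not tested. Of these 9, all measured above the filter, 5 were called lower in L428, 6 in L1236, 7 in KM-H2, 2 in Namalwa and 4 with PMA, where 13.8%, 13.3%, 13.5%, 11.5% and 11.8% of all genes were. Those called higher numbered 2 in L428, none of 9 in L1236, 1 in KM-H2, 1 in Namalwa and none with PMA (16.2%, 15.7%, 16.8%, 7.50% and 10.5% of all genes). The medians were -1.08, -1.23, -2.83, -0.09 and -0.40. By the unadjusted limma p below 0.05, 1 gene was higher in L1236 and 2 with PMA. In either direction, 7699 of the 14679 genes tested had such a p in L1236 and 6265 with PMA. PRDM1, which encodes the plasma cell factor BLIMP1, was 3.47 higher in L428 than in the controls (SE 0.17, limma adjusted p = 5.52e-07), with 9.49 and 12.8 FPKM. PAX5 and EBF1, B-lineage factors, were lower in L428 (-5.32 and -3.68, limma adjusted p = 1.86e-06 and 1.90e-06), in L1236 (-1.23 and -5.05, adjusted p = 0.0128 and 2.75e-07) and in KM-H2 (-4.96 and -3.26, adjusted p = 2.74e-06 and 3.91e-06), and both were lower with PMA (-1.97 and -1.90, adjusted p = 0.00450 and 0.000859).

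IRF5 spans chr7:128577511-128590092 on the plus strand. It lay at 81.4 and 114 FPKM in L428, at 68.5 and 74.9 FPKM in L1236 and at 16.8 and 12.7 FPKM in KM-H2. Namalwa held 1.20 and 0.913 FPKM, Reh 2.87 and 2.28 FPKM, and PMA-treated Reh 0.482 and 0.431 FPKM. No 2 neighbouring conditions in this order of levels overlapped, with L428 highest, then L1236, KM-H2, Reh, Namalwa and PMA-treated Reh. The table gives 1 value per gene, so the start sites used were not resolved.

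The difference in IRF5 from the control mean was 5.17 in L428 (SE 0.20, limma adjusted p = 1.99e-07), 4.75 in L1236 (SE 0.20, adjusted p = 1.83e-07) and 2.53 in KM-H2 (SE 0.20, adjusted p = 7.88e-06). Against Namalwa alone it was 5.57, 5.15 and 2.93, and against Reh alone 4.77, 4.35 and 2.13. KM-H2 stood below the other cHL lines, and the largest difference among the 3 was 2.64 (F test in limma, adjusted p = 2.73e-05). Treatment with PMA lowered IRF5 in Reh (-1.29, SE 0.23, adjusted p = 0.00306), though quantile normalization took the difference to -0.97, under the fold required, and a pseudocount of 0.1 took it to -2.26 (adjusted p = 0.000532). Namalwa lay at -0.80 against Reh (SE 0.23, adjusted p = 0.0299), also under that fold, and was called with a pseudocount of 0.1 (-1.21, adjusted p = 0.00839).

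RefSeq lists several starts of IRF5, which is why a promoter is shown. Of 9 promoter windows matched for 5 of the 8 members (IRF1, IRF4, IRF5, IRF8 and IRF9), 250 bases upstream of each start were searched on both strands for 5 motifs. These were GAAA and GAAA 2 bases apart (an interferon-stimulated response element), GGAA and GAAA 2 bases apart (a composite site of PU.1 or SPIB with an IRF), TTC and GAA 3 bases apart (a STAT site), TGANTCA (AP-1) and GGGAA and CC 3 bases apart (NF-kappaB), which may overlap and which 3.02%, 2.41%, 6.57%, 6.57% and 6.02% of 35116 RefSeq windows held. A single IRF5 window held the composite PU.1 and IRF motif on the minus strand, at bases -33 to -24 from the start. Its stretch outside annotated exons is chr7:128580518-128580723 (GRCh37, plus strand), with the motif in capitals:
IRF5: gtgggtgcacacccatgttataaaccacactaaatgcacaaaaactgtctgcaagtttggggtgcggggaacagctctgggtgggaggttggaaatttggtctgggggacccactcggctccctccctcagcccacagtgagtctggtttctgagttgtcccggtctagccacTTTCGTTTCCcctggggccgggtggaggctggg
No window of IRF4 or IRF8 held any of the 5 motifs as spelled. Both IRF8 windows (chr16:85936186-85936435 and chr16:85936371-85936620) lie inside the annotated span of the gene, which starts at chr16:85932722. The bases upstream of that annotated start were not searched.

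IRF1 and IRF2 bind the same sites with opposite effects. IRF1 spans chr5:131776132-131844411 on the minus strand and IRF2 spans chr4:185306856-185395712 on the minus strand. IRF1 lay at 54.5 and 64.5 FPKM in Reh and at 14.4 and 12.3 FPKM after PMA. In the other lines it lay at 27.4 and 31.6 FPKM (L428), 19.9 and 22.0 FPKM (L1236), 13.7 and 13.5 FPKM (KM-H2) and 16.9 and 17.9 FPKM (Namalwa). Reh was above every other condition, and only KM-H2 and PMA-treated Reh overlapped among neighbours in the order.

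IRF2 lay at 35.4 and 26.4 FPKM in Reh and at 10.8 and 12.1 FPKM after PMA. It lay at 21.7 and 23.4 FPKM in L428, 19.6 and 22.0 FPKM in L1236, 8.76 and 10.4 FPKM in KM-H2, and 11.3 and 9.26 FPKM in Namalwa. Reh was again highest, L428 and L1236 overlapped, and PMA-treated Reh, Namalwa and KM-H2 formed an overlapping run at the bottom. PMA lowered both genes in Reh, IRF1 at -2.08 (SE 0.17, limma adjusted p = 5.71e-05) and IRF2 at -1.35 (SE 0.20, adjusted p = 0.00141). Both were lower in Namalwa than in Reh, IRF1 at -1.71 (SE 0.17, adjusted p = 8.13e-05) and IRF2 at -1.49 (SE 0.20, adjusted p = 0.000533).

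Against the control mean IRF1 was called lower in KM-H2 (-1.19, SE 0.15, limma adjusted p = 0.000188) and lay at -0.13 in L428 and -0.60 in L1236. IRF2 lay at 0.32, 0.21 and -0.84 in L428, L1236 and KM-H2, none of them called. The choice of control set the sign of several comparisons of IRF1 and IRF2 with the controls. Against Reh alone IRF1 lay at -0.99, -1.46 and -2.05 in L428, L1236 and KM-H2 (limma adjusted p = 0.00166, 0.000138 and 1.44e-05). Against Namalwa alone it lay at 0.73, 0.25 and -0.33 (adjusted p = 0.00879, 0.292 and 0.162). IRF2 lay at -0.43, -0.53 and -1.58 against Reh (adjusted p = 0.127, 0.0627 and 0.000205) and at 1.06, 0.96 and -0.09 against Namalwa (adjusted p = 0.00263, 0.00484 and 0.770). Among the cHL lines the largest difference was 1.06 for IRF1 (F test in limma, adjusted p = 0.00255) and 1.16 for IRF2 (adjusted p = 0.00207). Without the L428 library numbered 1, the IRF1 difference was 0.96 and under the fold required.

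The IRF1 promoter window held the STAT motif at bases -124 to -116 from the start, and 1 such match was also found for IRF9, so both are shown with the match in capitals. The stretch at IRF1 outside annotated exons is chr5:131826470-131826715 (GRCh37, minus strand), which lies within the annotated span of the gene. The IRF9 match lies at bases -63 to -55 in an exon of an overlapping transcript, and only 30 bases around it are given, chr14:24630401-24630430 (plus strand).
IRF1: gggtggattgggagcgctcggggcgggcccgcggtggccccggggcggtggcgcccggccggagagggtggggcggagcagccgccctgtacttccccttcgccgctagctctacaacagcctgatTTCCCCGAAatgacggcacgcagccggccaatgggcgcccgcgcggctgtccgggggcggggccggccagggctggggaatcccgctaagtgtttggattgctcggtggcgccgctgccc
IRF9: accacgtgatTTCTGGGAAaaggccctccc

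The gene whose level was most like that of IRF1 over the 12 libraries, among 5673 genes with condition means at least 2 apart on the log2 scale, was C5orf56 (Pearson r = 0.940). RefSeq gives this symbol as an alias of IRF1-AS1, which GENCODE places on the opposite strand and overlapping IRF1. C5orf56 lay at 33.9 and 28.5 FPKM in Reh, at 1.65 and 3.32 FPKM after PMA and at 3.16 to 11.7 FPKM in the other libraries. The library kit keeps strand, but the strand setting of the alignment and counting is not given in the sources used here, so shared reads between the 2 genes were not separated. USP51 and ZFP36L2 followed (r = 0.928 and 0.902).

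IRF3 spans chr19:50162826-50169132 and IRF7 spans chr11:612553-615983, both on the minus strand. IRF3 lay at 94.3 and 75.7 FPKM in PMA-treated Reh and at 29.9 and 38.1 FPKM in Reh. It lay at 43.0 and 43.6 FPKM in L428, 44.6 and 51.0 FPKM in L1236, 16.0 and 26.3 FPKM in KM-H2, and 30.9 and 48.2 FPKM in Namalwa. PMA-treated Reh was highest and KM-H2 lowest, without overlap with their neighbours, and L428, Namalwa and Reh formed an overlapping run.

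PMA raised IRF3 in Reh by 1.30 (SE 0.29, limma adjusted p = 0.00919). Without the Reh library numbered 0 the difference was 1.13 (adjusted p = 0.0741), and without the PMA library numbered 0 it was 1.14 (adjusted p = 0.0719), neither of them called. BCL2L12, which overlaps IRF3 on the opposite strand, moved with it: it lay at 2.48 and 3.50 FPKM in Reh and at 24.1 and 19.2 FPKM after PMA, and the part of shared reads in the IRF3 value was not tested. No cHL line was called against the control mean (0.25 in L428, 0.39 in L1236 and -0.78 in KM-H2, limma adjusted p = 0.439, 0.233 and 0.0285), but without the KM-H2 library numbered 1 that line was called lower (-1.12, adjusted p = 0.0150). Namalwa lay at 0.19 against Reh (SE 0.29, adjusted p = 0.756). Among the cHL lines the largest difference was 1.17 (F test, adjusted p = 0.0139), and without the KM-H2 library numbered 0 it was 0.83 (adjusted p = 0.108).

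IRF7, which interferon itself induces, lay at 33.5 and 32.2 FPKM in PMA-treated Reh and at 11.4 and 12.3 FPKM in Reh. Namalwa held 2.77 and 2.71 FPKM. The cHL duplicates were far apart, with 4.29 and 14.4 FPKM in L428, 12.5 and 22.8 FPKM in L1236, and 2.13 and 7.34 FPKM in KM-H2. PMA-treated Reh was above all other libraries, while the ranges of Reh, L428, KM-H2 and Namalwa each overlapped the next.

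The IRF7 difference with PMA was 1.40 (SE 0.55) and was not called when all 12 libraries shared the spread (limma adjusted p = 0.083). With only the 4 Reh libraries in the fit the adjusted p was 0.0112, and with the column number as a replicate block, an alternative added after seeing the data, it was 0.0369. Namalwa was lower than Reh (-1.78, SE 0.55, adjusted p = 0.0431), but leaving out any of the 4 libraries gave adjusted p = 0.142 to 0.165, and the call also ended with no filter (adjusted p = 0.0735) and with quantile normalization (adjusted p = 0.0770). L1236 was 1.37 higher than the control mean (SE 0.48, limma adjusted p = 0.0419), and leaving out any of its 6 libraries gave adjusted p = 0.0603 to 0.289. This call too ended with no filter (adjusted p = 0.0697) and with quantile normalization (adjusted p = 0.0652). Against Reh alone that difference was 0.48 (adjusted p = 0.534) and against Namalwa alone 2.26 (adjusted p = 0.00993). IRF7 was not called in L428 (0.38, SE 0.48, limma adjusted p = 0.553) or KM-H2 (-0.44, SE 0.48, adjusted p = 0.488). Without the library numbered 0, L428 lay at 1.15 (adjusted p = 0.0977) and KM-H2 at 0.27 (adjusted p = 0.732), and without that numbered 1 they lay at -0.39 (adjusted p = 0.608) and -1.14 (adjusted p = 0.137), none of them called. The largest difference among the cHL lines was 1.81 and was not called (F test in limma, adjusted p = 0.0546), whereas without either L428 library or without the KM-H2 library numbered 1 it was (adjusted p = 0.0207 to 0.0267). With the column number as a replicate block it was also called (adjusted p = 0.0208).

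**Figure D4:**
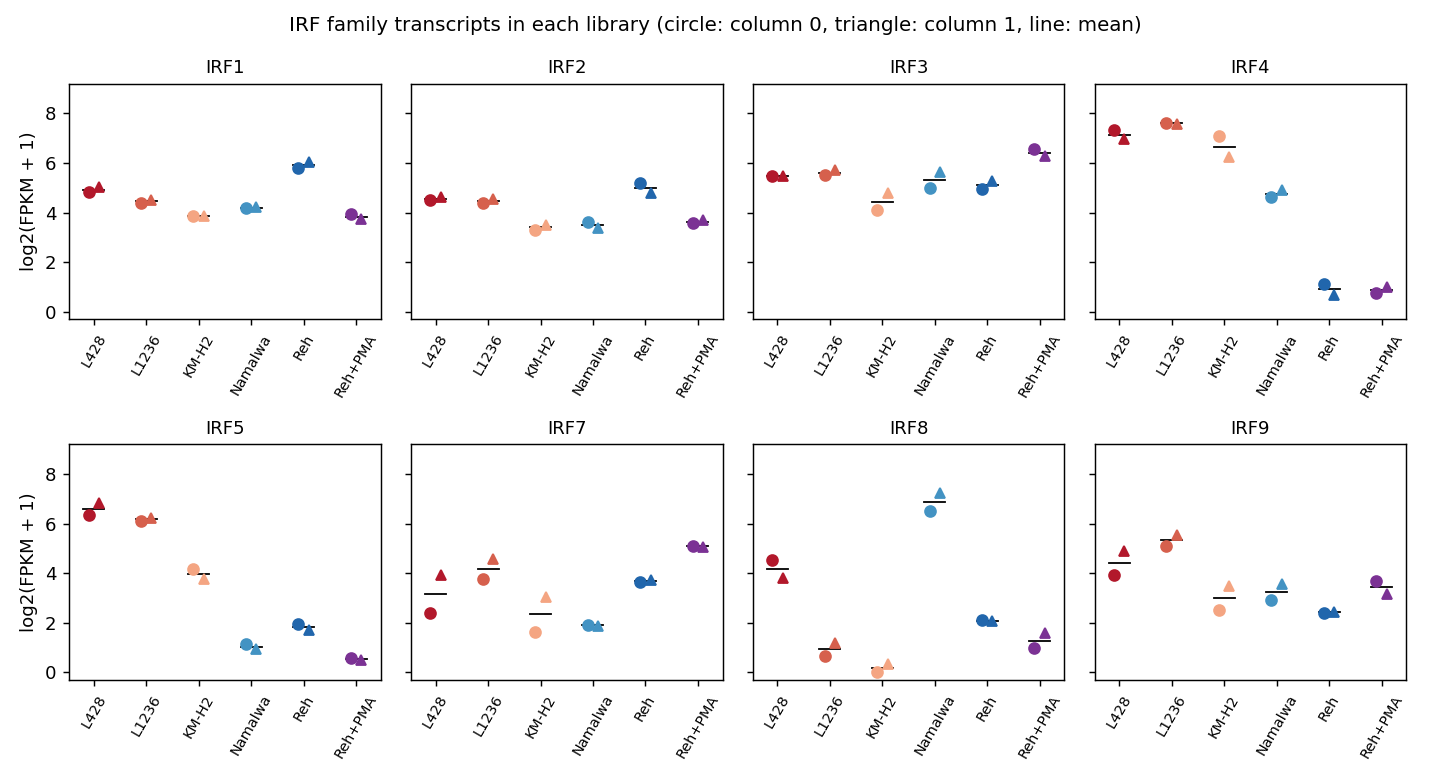
Levels of the 8 IRF genes as log2(FPKM + 1) by condition; circles are the libraries numbered 0, triangles those numbered 1 and lines their mean. IRF4 and IRF5 are high in the cHL lines, IRF8 peaks in Namalwa, IRF1 and IRF2 in Reh, and IRF3 and IRF7 in PMA-treated Reh.

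Of 17 sensors and kinases upstream of IRF3, IRF5 and IRF7, all tested, 4 were called higher and 3 lower in L428, 4 and 2 in L1236, 6 and 1 in KM-H2, 3 and 4 in Namalwa, and 3 and 3 with PMA. As shares called higher and lower these were 23.5% and 17.6% in L428, against 16.2% and 13.8% of all genes, and 23.5% and 11.8% in L1236, against 15.7% and 13.3%. They were 35.3% and 5.88% in KM-H2 (16.8% and 13.5% of all genes), 17.6% and 23.5% in Namalwa (7.50% and 11.5%), and 17.6% and 17.6% with PMA (10.5% and 11.8%). The list in L428 thus lay near all genes, with a median of 0.02, and the other medians were 0.51, 0.37, 0.09 and -0.27. IFIH1, the cytosolic double-stranded RNA sensor MDA5, was 3.93 higher in L428, 3.41 in L1236 and 2.05 in KM-H2 than in the controls, with limma adjusted p of 0.000666 or less. TMEM173, which encodes the DNA-sensing adaptor STING, was 1.98, 4.43 and 3.26 higher (adjusted p of 0.000232 or less). With PMA, IKBKE, a kinase of IRF3 and IRF7, TLR3, an endosomal RNA receptor, and UNC93B1, which carries such receptors to endosomes, were each lower, at -1.80, -1.79 and -1.80 (limma adjusted p = 0.00461, 0.00263 and 0.00399). In Namalwa MB21D1, the DNA sensor cGAS, was lower than in Reh (-4.48, SE 0.21, limma adjusted p = 7.30e-07).

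IRF9 spans chr14:24630443-24637252 on the plus strand. It lay at 33.7 and 45.6 FPKM in L1236, at 14.1 and 28.8 FPKM in L428 and at 4.74 and 10.3 FPKM in KM-H2. Namalwa held 6.63 and 10.9 FPKM, Reh 4.27 and 4.43 FPKM, and PMA-treated Reh 12.1 and 7.94 FPKM. L1236 and L428 were above all other conditions, PMA-treated Reh, Namalwa and KM-H2 overlapped, and Reh was lowest. Other annotated genes overlap IRF9 on both strands, so its reads may be shared.

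IRF9 was 1.57 higher than the control mean in L428 (SE 0.37, limma adjusted p = 0.00664) and 2.49 higher in L1236 (SE 0.37, adjusted p = 0.000480), and lay at 0.17 in KM-H2 (SE 0.37, adjusted p = 0.733). The L428 call was lost without its library numbered 1 (1.08, adjusted p = 0.0823) and against Namalwa alone (1.16, adjusted p = 0.0535). The largest difference among the cHL lines was 2.32 (F test in limma, adjusted p = 0.00434). With PMA the difference was 1.01 (SE 0.42, adjusted p = 0.0983), and in Namalwa against Reh it was 0.83 (SE 0.42, adjusted p = 0.205).

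JAK2, a kinase of interferon-gamma and cytokine receptors, was 2.66 higher than in the controls in L428 and 3.84 in L1236 (limma adjusted p = 1.49e-05 and 1.30e-06), and lay at 0.77 in KM-H2, which was not called (adjusted p = 0.0193). Of 12 genes for interferons, their receptors and JAK-STAT partners, 9 were tested, of which 4 were called higher and 2 lower in L428, 4 and 1 in L1236, 4 and none in KM-H2, 1 and 1 in Namalwa, and 1 and none with PMA. Of all genes 16.2% and 13.8% were called higher and lower in L428, 15.7% and 13.3% in L1236, 16.8% and 13.5% in KM-H2, 7.50% and 11.5% in Namalwa, and 10.5% and 11.8% with PMA, so that 1 of 9 called (11.1%) is close to the share over all genes in Namalwa, with PMA and, for lower calls, in L1236. The medians were 0.64, 0.80, 0.99, -0.22 and -0.03. By the unadjusted limma p below 0.05, none was lower in KM-H2 and 2 were lower with PMA. In either direction, 7876 of the 14679 genes tested had such a p in KM-H2 and 6265 with PMA. The gene called with PMA was IFNGR1, an interferon-gamma receptor chain (2.57 higher, SE 0.49, limma adjusted p = 0.00476). IFNB1, IFNG and IFNL1, which encode interferons, did not pass the filter: IFNB1 reached 0.698 FPKM and IFNL1 0.248 FPKM at most, and IFNG reached 2.87 FPKM in a single L428 library.

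Interferon-stimulated targets were mostly higher in L1236. Of 22 such genes, all tested, 16 were called higher and none lower in L1236, 11 and 2 in L428, and 9 and 1 in KM-H2, with medians of 2.03, 1.02 and 0.70. Of all genes 15.7% and 13.3% were called higher and lower in L1236, 16.2% and 13.8% in L428, and 16.8% and 13.5% in KM-H2. The list lay lower in Namalwa than in Reh, with 1 called higher and 11 lower (median -1.07), where 7.50% and 11.5% of all genes were. With PMA none was called higher and 10 were called lower (median -0.73), where 10.5% and 11.8% of all genes were. By the unadjusted limma p below 0.05, none was lower in L1236 and none higher with PMA. In either direction, 7699 of the 14679 genes tested had such a p in L1236 and 6265 with PMA. Over line means none of the 22 targets was called, where 0.320% of all genes were called higher and 0.225% lower. The same held for the 17 sensors and kinases, the 9 interferon and JAK-STAT genes tested, and the 9 B-cell and plasma cell genes. GBP2, an interferon-induced GTPase, was 4.17 higher in L428, 3.27 in L1236 and 2.78 in KM-H2 (limma adjusted p = 9.57e-06, 4.44e-05 and 0.000121). MX1, an antiviral GTPase, divided the cHL lines, with 58.6 and 128 FPKM in L1236, 3.31 and 5.59 FPKM in L428, and 0 and 0.432 FPKM in KM-H2. With PMA, MX1 (-2.45), the interferon-induced protease USP18 (-2.38) and the RNA-sensing enzyme OAS3 (-2.11) were lower, with limma adjusted p = 0.00649, 0.00101 and 0.000307.

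IRF7 and IRF9 were higher in the library numbered 1 in each cHL line. The difference, number 1 minus number 0, was 1.54, 0.82 and 1.41 for IRF7 and 0.98, 0.42 and 0.97 for IRF9 in L428, L1236 and KM-H2. In Namalwa, Reh and PMA-treated Reh it was -0.02, 0.09 and -0.05 for IRF7 and 0.64, 0.04 and -0.55 for IRF9. IRF4 went the other way, at -0.38, -0.03 and -0.82 in the cHL lines. Of the 22 interferon-stimulated targets, 14, 20 and 17 were higher in the library numbered 1 of L428, L1236 and KM-H2, where 50.1%, 50.3% and 47.6% of all genes tested were. In Namalwa, Reh and PMA-treated Reh 15, 17 and 6 of them were higher (47.7%, 45.9% and 45.8% of all genes). The median over these targets was 0.016, 0.76 and 0.51 in L428, L1236 and KM-H2, and 0.30, 0.27 and -0.13 in Namalwa, Reh and PMA-treated Reh. The 10 most abundant genes took a larger share of the summed FPKM in the library numbered 1 in all 6 conditions. In those numbered 1 they took 44.2%, 33.9% and 27.4% in L428, L1236 and KM-H2 and 29.7%, 28.3% and 31.3% in Namalwa, Reh and PMA-treated Reh. In those numbered 0 they took 25.2%, 24.7% and 21.8%, and 22.1%, 22.5% and 30.2%. What the numbers stand for is not given in the sources used here, and their part in the IRF7 and IRF9 differences was not tested.

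**Figure D5:**
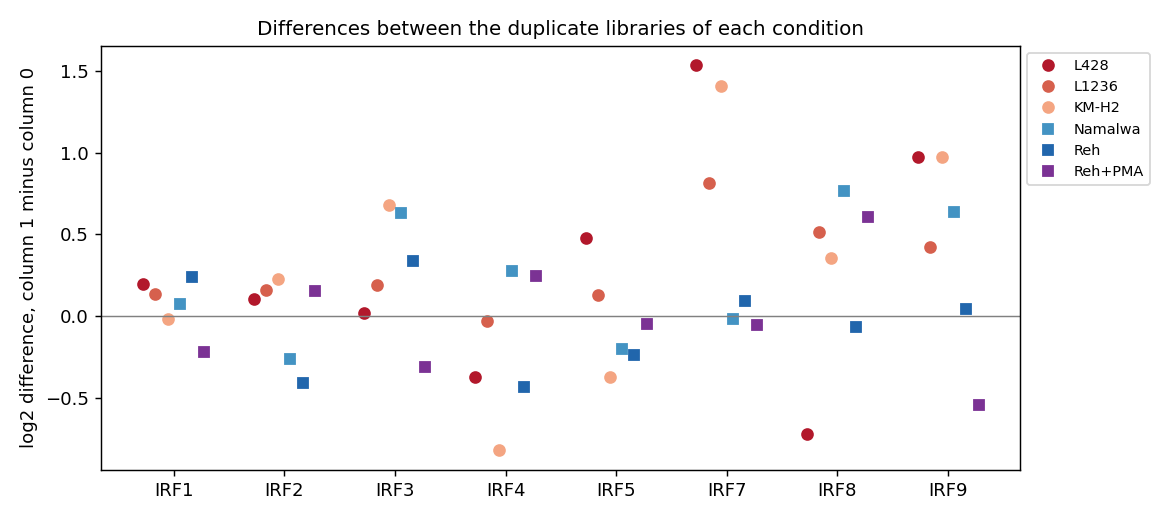
Difference between the duplicate libraries of each condition, number 1 minus number 0, on the log2(FPKM + 1) scale for the 8 IRF genes; circles are cHL lines and squares the other conditions. The IRF7 points of the 3 cHL lines lie at 0.82 to 1.54 and those of the other conditions near 0.

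For the other members the genes with the most similar levels over the 12 libraries were ATP6V0A1, LRRC61 and DTD1 for IRF4 (r = 0.994, 0.988 and 0.986), NCALD, VASH2 and SMPD3 for IRF5 (r = 0.993, 0.990 and 0.985) and KREMEN1, CHFR and CAB39L for IRF8 (r = 0.984, 0.954 and 0.937). Those of IRF2 were TFAP2A-AS1, ANXA2R and PARP14 (r = 0.944, 0.923 and 0.907), and those of IRF3 were MED7, SERTAD3 and ABHD10 (r = 0.927, 0.921 and 0.908). IRF7 was most like FNBP1L and IRGQ (r = 0.917 and 0.912), and IRF9 was most like ANKRD37, DNAJC18 and RNF19B (r = 0.949, 0.941 and 0.925). The libraries fall into 6 duplicate pairs, so these values describe 6 conditions and carry no test.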

How the data were processed

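The authors deposited FPKM values per gene for 12 libraries, made with TopHat2 2.0.11 and Cuffnorm 2.2.1 on hg19 according to the submitters' processing notes. The annotation, normalization option and strand setting are not given in the sources used here. The FPKM table holds no read counts. The commonest ratio of low FPKM values between libraries, taken as 1 fragment to 1 fragment, put the worth of a fragment at 0.429 (L1236 number 1) to 2.61 (KM-H2 number 0) times that in Reh number 0. Depth in reads is unknown. Columns were assigned to conditions by their headers, and their numbers 0 and 1 were not matched to the labels' replicates 1 and 2. Differences between number 1 and number 0 correlated across genes between the cHL lines (r = 0.301 to 0.681), so the numbers were taken to pair those libraries, and also between Namalwa and Reh (r = 0.357), KM-H2 (r = 0.191) and L1236 (r = 0.165), while the other pairs of conditions lay between r = -0.045 and 0.0977.

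Genes at 1 FPKM or more in at least 2 libraries (14679 of 26210) were tested on log2(FPKM + 1) with limma 3.58.1 in R 4.3.3 (empirical Bayes with a trend), with all 12 libraries sharing the spread (a library left alone in its condition was assumed to vary like the others), or 1 mean per line for the comparison of 3 cHL with 2 control lines. P-values were two-sided, or from an F test among the cHL lines, and were adjusted over all genes tested. This scale understates the change of low genes. The procedure was also run on simulated data whose spread was that between duplicates, with none between lines. That run cannot show how the comparison over line means behaves, and its outcome is not reported here. The members and gene lists were chosen with earlier results of these data known. All members were named, and of each list the 3 called genes with the largest difference in a comparison could be named. Genes outside that rule (marker genes, interferon genes, C5orf56, BCL2L12 and levels of SPI1, BATF and JUNB) were named after their values were seen. Some genes that the rule or the lists include are not reported here. Promoters came from RefSeq and coordinates from GENCODE v44lift37 or an exact match to GRCh37. Alternatives were a pseudocount of 0.1, no filter, quantile normalization, only the libraries of the comparison, single controls, libraries as the unit and leaving out each library, and, chosen after seeing the data, the column number as a replicate block and cHL libraries of 1 number alone.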

Additional observations from a re-analysis of the deposited data

Results flagged for a closer look

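For 6 of the 8 members the effect of line against the same controls differed between L428, L1236 and KM-H2, by an F test of the difference itself in limma (adjusted p = 2.73e-05 to 0.0139). The largest difference between any pair of the lines on the log2(FPKM + 1) scale was 3.99 for IRF8, highest in L428, and 2.64 for IRF5, also highest in L428. It was 2.32 for IRF9 and 1.17 for IRF3, both highest in L1236. It was 1.16 for IRF2 and 1.06 for IRF1, both highest in L428. KM-H2 was the lowest of the 3 lines for each of these 6 genes. For comparison, 42.2% of all genes tested were called in the same test. Leaving out 1 library ended the call for IRF1 (0.96 without the L428 library numbered 1) and IRF3 (0.83 without the KM-H2 library numbered 0).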

How the results depend on the processing

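With the column number as a replicate block, which cannot be had on line means, 6354 genes were called among the cHL lines against 6191, IRF7 was gained there and with PMA, and no other IRF call changed. Of the IRF values, 290 of 320 alternatives other than leaving out libraries (fits on cHL libraries of 1 number not counted) left direction and call as they were, and 306 of 336 that left out 1 library. Signs turned with the control chosen. Against Reh alone L428 gave -0.43 (IRF2), -0.51 (IRF7) and 2.08 (IRF8), and L1236 gave -0.53 (IRF2). Against Namalwa alone IRF1 gave 0.73 in L428 and 0.25 in L1236, and KM-H2 gave 0.45 (IRF7) and -0.24 (IRF9). Fits on cHL libraries of 1 number leave 1 library per line, with the spread (except over line means) from the other conditions, so only their values are given. With those numbered 0 alone, L428 gave -0.39 (IRF7) and 0.051 (IRF8), KM-H2 gave -0.31 (IRF9), and the line means gave -0.19 (IRF7). With those numbered 1 alone, KM-H2 gave 0.27 (IRF7) and the line means 0.10 (IRF3). IRF4 with PMA gave 0.0091 with a pseudocount of 0.1 and 0.33 with quantile normalization. Leaving out each library gave -0.22 to 0.21 for IRF4 with PMA, -0.13 to 0.50 for IRF3 in Namalwa, -0.39 to 1.15 for IRF7 and -0.67 to 0.051 for IRF8 in L428, -1.14 to 0.27 for IRF7 and -0.31 to 0.66 for IRF9 in KM-H2, and -0.20 to 0.11 for IRF3 over line means. IRF5 in Namalwa was called with a pseudocount of 0.1 (-1.21). Over line means 47 genes were called higher and 33 lower, against 8 and 3 with no filter, 2 and 3 with cHL libraries numbered 0 alone, and 2014 and 1600 with libraries as the unit. Leaving out each library gave 12 to 51 higher and 15 to 37 lower, and 1040 to 1372 lower with PMA, against 1731. The causes were not tested, apart from the larger number of units when libraries were the unit. Depth in reads is unknown, which limits the low values of IRF4 and IRF5 in Reh and of IRF8 in KM-H2.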
